A study of Mus musculus with 112 samples.

Results

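Sons of unexposed Nrf2-/- sires were compared with sons of unexposed wild type (WT) sires for DNA methylation (DNAme) in the prefrontal cortex. The comparison held 16 of the 112 libraries of the study, 8 per group, and its members were all library columns of both control F1 brain tables. The sires were C57BL/6J males (control WT) or Nrf2-/- males on a C57BL/6J background (control Nrf2-/-), and none of these sires was exposed to cigarette smoke. The mothers of every son were unexposed CAST/EiJ females. Sons of Nrf2-/- sires are therefore heterozygous for the targeted allele, and the names control Nrf2-/- brain and control WT brain refer to the sire. All sons were adult males, so each X chromosome came from the CAST/EiJ mother. The labels give neither sire nor litter, so sons that share a father count here as separate replicates. The question of the comparison is whether loss of NRF2 in an unexposed father changes DNAme in the brain of his sons. The groups also differ in the genotype of the sons themselves. An effect of the father's loss and one of the sons' own genotype therefore cannot be told apart on any chromosome.

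NRF2, the product of Nfe2l2, is a transcription factor that is held in the cytoplasm and degraded through KEAP1 until oxidants or electrophiles release it. It then pairs with small MAF proteins and switches on genes of glutathione synthesis, quinone detoxification and iron handling. DNAme in mammals sits mainly on cytosines of CpG pairs, is low at most CpG-rich promoters and high elsewhere, and is largely erased and rewritten between sperm and the tissues of the offspring. In reduced representation bisulfite sequencing (RRBS), DNA is cut here with MspI (ccgg) and TaqI (tcga), and bisulfite turns unmethylated cytosines into bases read as thymine. The percent at a cytosine is the share of its reads that stayed unconverted, and each strand of a CpG is a position of its own.

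The control Nrf2-/- libraries had a value at 1344130 to 1627133 positions and the control WT libraries at 1474386 to 1588466. The files hold percents without read counts, and the depth of a value is therefore not known. Reads from both parental genomes were placed on mm10, so at a cytosine that differs in sequence a percent can mix sequence with DNAme. A scoreable cytosine had a value in at least 4 libraries of each of the 4 F1 brain groups. Scoreable cytosines at most 100 bp apart were joined to regions of at least 3 cytosines and more than 50 bp. This gave 80920 regions with a median of 6 cytosines and 113 bp. Promoters of the excitatory neuron markers averaged 2.98% in control Nrf2-/- brain and 2.06% in control WT brain, and those of the germ cell markers 76.7% and 77.4%. At 4 coding cytosines of the gene, between chr2:75676209 and chr2:75676369, 0 of 10 control Nrf2-/- sperm libraries and 10 of 10 control WT sperm libraries had a value. In the sons, which also carry a maternal copy of the gene, 8 of 8 libraries of both groups had values there. One control WT brain sample carries a mutant strain in one of its labels and was grouped by its title. The labels do not tie that sample to a column, and its genotype was not tested. At the Osbpl6 region near Nfe2l2, described below, all 8 control WT columns had 80.4% to 85.6%. The 8 control Nrf2-/- columns had 35.1% to 40.8% there.

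Few regions differed between the groups beyond the spread between libraries. Of 80920 regions, 10 (0.0124%) passed the test (limma, adjusted p under 0.05), 2 of them higher and 8 lower in control Nrf2-/- brain. Of these, 7 lay on chromosome 2, which carries Nfe2l2, at up to 16.2 Mb from that gene. The others lay beside Asb4 on chromosome 6, far from the nearest coding start on chromosome 13, and at the promoter of Pgk1 on chromosome X. Counting the called regions, 6255 regions (7.73%) had an unadjusted p under 0.05 (limma), 5192 of them higher in control Nrf2-/- brain. The next region, between genes on chromosome 6 with Sem1 as the nearest, missed the threshold with an adjusted p of 0.0563 (limma).

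The DNA of 7 of the 10 regions is shown because in most of them the difference sat on a single CpG. Letters are those of the reference genome (GRCm38, the build mm10; forward strand, 5′ to 3′), extended by 1 base at each end. Capitals mark the CpG pairs whose group means differed by more than 20 points, or by more than 5 points in the Pgk1 region, where the change was spread.
Osbpl6 intron, chr2:76447348-76447414: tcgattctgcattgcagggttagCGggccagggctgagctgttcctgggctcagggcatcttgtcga
Tanc1 intron, chr2:59673570-59673686: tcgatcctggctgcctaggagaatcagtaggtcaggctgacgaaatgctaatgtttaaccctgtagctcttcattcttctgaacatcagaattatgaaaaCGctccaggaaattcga
Pde11a coding exon, chr2:76158273-76158355: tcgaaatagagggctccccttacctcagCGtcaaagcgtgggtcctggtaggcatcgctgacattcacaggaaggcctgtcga
Itprid2 coding exon, chr2:79644750-79644803: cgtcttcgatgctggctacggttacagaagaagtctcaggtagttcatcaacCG
near Asb4, chr6:5381510-5381607: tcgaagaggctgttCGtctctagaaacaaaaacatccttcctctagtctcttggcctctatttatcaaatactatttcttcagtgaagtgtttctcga
intergenic, chr13:107713198-107713356: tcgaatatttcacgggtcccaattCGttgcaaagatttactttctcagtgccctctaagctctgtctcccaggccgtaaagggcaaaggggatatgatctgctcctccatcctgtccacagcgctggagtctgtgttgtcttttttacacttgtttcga
Pgk1 promoter, chrX:106186730-106186846: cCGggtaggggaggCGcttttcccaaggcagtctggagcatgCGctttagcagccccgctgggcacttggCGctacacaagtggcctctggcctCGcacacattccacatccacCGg
The Osbpl6, Tanc1, Pde11a, Asb4 and chromosome 13 stretches begin and end with the TaqI site, and the Pgk1 stretch with the MspI site, so each is a single restriction fragment.

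The largest difference was in an intron of Osbpl6, which encodes an oxysterol-binding protein of lipid transfer, 0.743 Mb from Nfe2l2. The 8 control Nrf2-/- libraries had a lowest region value of 35.1%, a median of 38.4% and a highest of 40.8%, and the control WT libraries had 80.4%, 82.3% and 85.6%. The groups did not overlap. The region fell by 44.6 points ± 1.05 (SE; n = 8 and 8; limma, adjusted p = 7.5e-23). The fall came mainly from both strands of the capital CpG. The cytosine at 76447371 averaged 0.171% in control Nrf2-/- brain and 89.8% in control WT brain, and that at 76447372 averaged 3.74% and 92.2%. The remaining 2 cytosines changed by -6.01 and 5.52 points, a mean of -0.247 points.

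Tanc1, a scaffold protein of the postsynaptic side of excitatory synapses, showed the same shape. Its intronic region ranged from 64.0% to 71.5% (median 69.1%) in control Nrf2-/- brain and from 80.0% to 84.5% (median 82.9%) in control WT brain, with no overlap. It fell by 14.01 points ± 1.12 (limma, adjusted p = 1.34e-08). The marked cytosine, at 59673671, had 0% in control Nrf2-/- brain and 51.0005% in control WT brain, while the other 3 cytosines stayed at 90.6% or above in both groups.

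Cers6 encodes a ceramide synthase. Its intronic region, chr2:68977867-68977953, ranged from 68.9% to 73.7% (median 70.6%) in control Nrf2-/- brain and from 78.2% to 87.3% (median 83.3%) in control WT brain. The groups did not overlap, and the region fell by 12.2 points ± 1.15 (limma, adjusted p = 4.4e-07). Here the cytosine at 68977924 went from 51.7% in control WT brain to 2.31%, and the remaining 3 cytosines changed by 0.21 points on average.

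Coding exons of Pde11a and Itprid2 were among the regions that fell. Pde11a encodes a phosphodiesterase that breaks down cyclic AMP and cyclic GMP. Its region had a lowest, median and highest value of 67.8%, 69.2% and 72.5% in control Nrf2-/- brain and of 76.2%, 81.8% and 88.8% in control WT brain, without overlap. It fell by 12.6 points ± 1.58 (limma, adjusted p = 0.000141), and its marked cytosine at 76158301 averaged 0% against 76.7%. The Itprid2 region had a value in 5 control Nrf2-/- libraries (66.1% to 76.0%) and in 6 control WT libraries (89.7% to 96.1%). It fell by 20.1 points ± 2.85 (limma, adjusted p = 0.00928), and its last cytosine averaged 0% against 97.6%. The call was lost without control Nrf2-/- columns 3 and 4 (limma, adjusted p = 0.0501), with plain means (0.0605) and with cytosines up to 300 bp apart joined (0.616).

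The remaining regions of chromosome 2 were smaller in size. Between genes, 38076 bp away from the Dapl1 start, a region (chr2:59522729-59522845) ranged from 9.29% to 14.2% in control Nrf2-/- brain and from 19.1% to 27.6% in control WT brain, and fell by 10.6 points ± 1.36 (limma, adjusted p = 0.000176). A region 791 bp from the start of Hnrnpa3 (chr2:75658385-75658470), the gene of an RNA-binding protein of the hnRNP family, was 0.0171 Mb from Nfe2l2 and the nearest of all. It was the only called region of chromosome 2 that rose, from 8.19% ± 1.16 (SD, n = 8) in control WT brain to 12.9% ± 1.81 in control Nrf2-/- brain, with overlapping ranges (limma, adjusted p = 0.00105). The call was lost with both control groups fitted alone (limma, adjusted p = 0.0887) and with cytosines up to 300 bp apart joined (0.785). Its first cytosine, inside a TaqI site, averaged 48.7% against 29.3%. The cytosine on the other strand of that CpG, at 75658386, had a value in 0 control Nrf2-/- and 8 control WT libraries. In the smoked pair it had a value in 0 Nrf2-/- and 6 WT libraries.

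**Figure D1:**
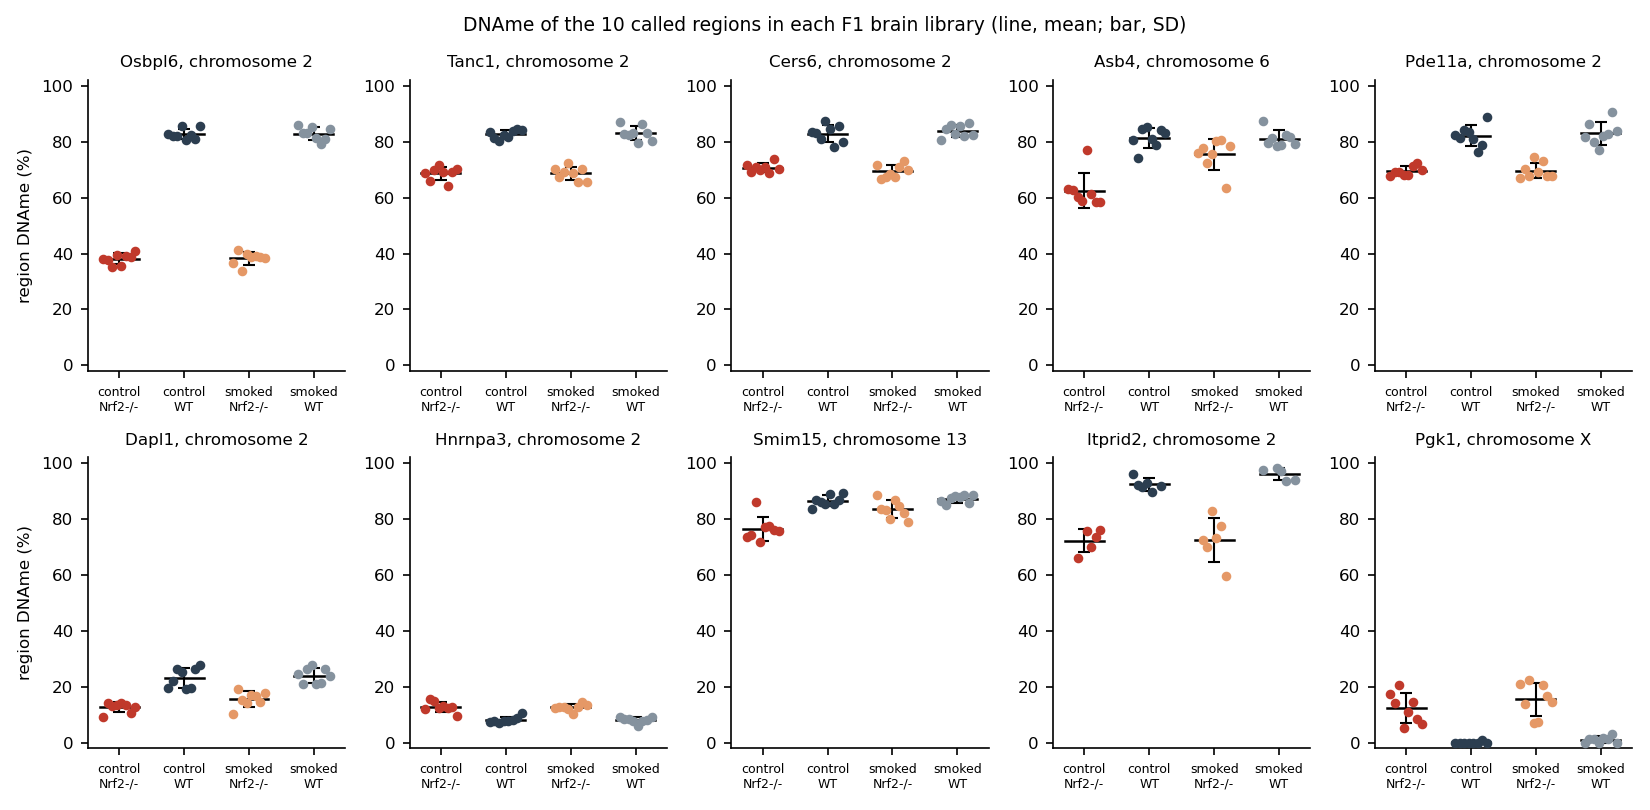
DNAme of the 10 called regions in percent (vertical axes, 0 to 100) for each F1 brain library of the 4 groups, with a point per library, a line at the group mean and a bar of 1 SD. At Osbpl6, Tanc1, Cers6, Pde11a, Dapl1, Itprid2 and Pgk1 the control groups do not overlap, while at Asb4 and at the chromosome 13 region near Smim15 a single control Nrf2-/- library sits among the WT values.

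On chromosome 6 the called region lay 1780 bp from the start of Asb4, an imprinted gene of an ankyrin repeat and SOCS box protein. Its libraries did not behave alike. In control Nrf2-/- brain, 7 libraries lay between 58.4% and 62.9% and column 5 stood at 77.1%, inside the control WT range of 74.1% to 85.2%. The region fell by 18.9 points ± 2.34 (limma, adjusted p = 0.000138). The single marked cytosine, at 5381524, was at 0% in 6 control Nrf2-/- libraries, 3.70% in column 3 and 37.3% in column 5, against 40.8% to 66.7% in control WT brain. A cytosine far along the same chromosome, at 53308767, passed the test on single cytosines with the same library apart. It read 0% to 5.66% in 7 control Nrf2-/- libraries, 51.2% in column 5, and 57.1% to 76.9% in control WT brain.

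The region on chromosome 13 was 331091 bp from the nearest coding start, that of Smim15. Column 3 of control Nrf2-/- brain had 85.9%, within the control WT range of 83.5% to 89.3%, and the other 7 libraries had 71.9% to 77.4%. The region fell by 10.0178 points ± 1.43 (limma, adjusted p = 0.00105), a call lost with both control groups fitted alone (adjusted p = 0.0883). At its marked cytosine, 107713222, column 3 had 95.3% and the other 7 libraries 30.8% to 47.6%, against 84.4% to 94.9% in control WT brain.

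Pgk1 encodes phosphoglycerate kinase, an enzyme of glycolysis, and its region lay 255 bp from the start of the gene on chromosome X. Control WT brain was close to unmethylated, with 7 libraries at 0% and a highest value of 1.11%. Control Nrf2-/- brain had a lowest value of 5.204%, a median of 12.5% and a highest of 20.6%, so that the groups did not overlap. The rise was 12.1 points ± 1.99 (limma, adjusted p = 0.00946), and it did not pass with both control groups fitted alone (adjusted p = 0.0582). The sequence of the targeted allele was not analysed here, and whether reads from it were placed at this promoter was not tested. All 6 cytosines of the region were higher, by 22.7 points at the largest. A second region of this promoter, from chrX:106187118 to chrX:106187222, was higher by 2.65 points ± 0.511 and missed the threshold (limma, adjusted p = 0.0866).

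**Figure D2:**
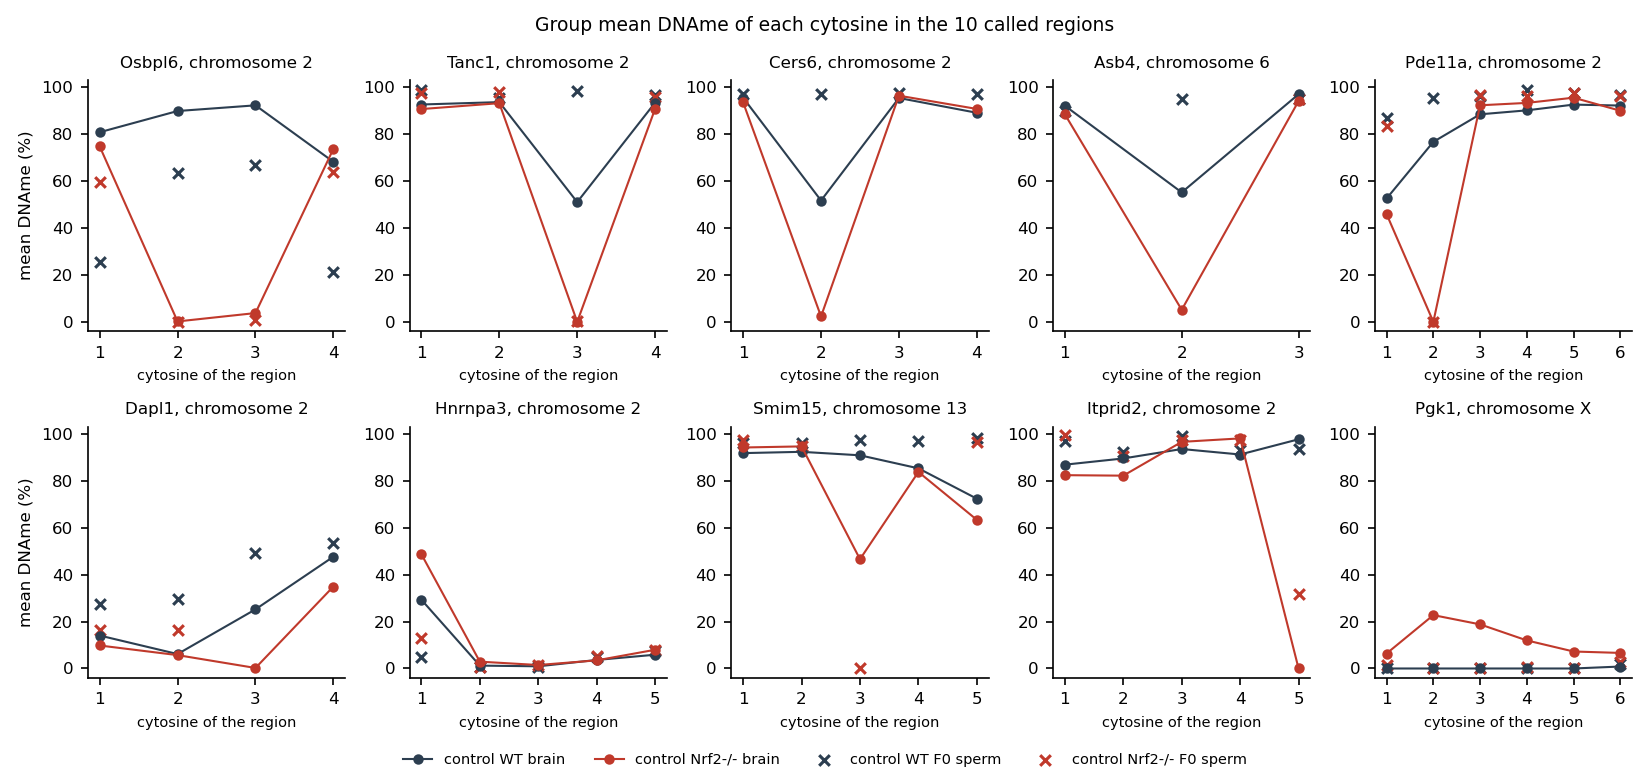
Mean DNAme in percent (vertical axes) of each cytosine in order along the 10 called regions (horizontal axes), with dots joined by lines for control brain, crosses for control F0 sperm, red for Nrf2-/- and dark blue for WT. Sperm means are drawn where at least 5 libraries of the group had a value. A single cytosine or CpG separates the brain lines in 8 panels, by up to 97.6 points in Itprid2, whereas the Pgk1 lines differ at all 6 cytosines and the Dapl1 lines at 2 neighbours.

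The test on single cytosines gave the same picture at a finer grain. Of 1390836 scoreable cytosines, 30 (0.00216%) passed (limma, adjusted p under 0.05), 24 of them lower in control Nrf2-/- brain. On chromosome 2, 22 passed, all between 58451031 and 80247611, which is 17.2 Mb before Nfe2l2 to 4.54 Mb after it. Of these 22, 21 were lower, by up to 97.6 points, and the Hnrnpa3 cytosine was higher by 19.4 points. In 13 of the 22 the control Nrf2-/- mean was under 5%. The other 8 cytosines were on chromosomes 6 (4), 11, 13, 14 and X. Among them a pair on chromosome 6, at 123754469 and 123754497, was higher in control Nrf2-/- brain: the first averaged 37.6% against 12.1% and the second 44.5% against 21.9%.

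Of 1207 regions of chromosome 2 within 20 Mb of the gene, 7 were called (limma, adjusted p under 0.05). Of the 4999 regions farther away on the chromosome 0 were called, and of the 74714 regions on other chromosomes 3. At an unadjusted p under 0.05 (limma) the counts were 91 (7.54%), 394 (7.88%) and 5770 (7.72%) in that order. Regions changed by size alone (a mean change above 5 points with at least 1 in 3 cytosines changed by more than 5) made up 6.55% within 20 Mb, against 7.74% on the rest of chromosome 2 and 7.54% on other chromosomes. Every son of an Nrf2-/- sire received the chromosome 2 copy that carries the targeted allele, so a difference due to the NRF2 loss of the sire and one due to the DNA inherited with that allele cannot be told apart at these regions. The sequence of the animals at these cytosines was not analysed here.

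Whether a cytosine had a value at all followed the same stretch. Among 124682 positions with a value in 7 to 9 of the 16 libraries, 169 (0.136%) had a value in all 8 libraries of one group and in none of the other. Of the 169, 142 lay on chromosome 2, all within 20 Mb of Nfe2l2, where only 1.49% of the tested positions lay. The value was present in control WT brain at 118 positions and in control Nrf2-/- brain at 51. Fisher's exact test (two-sided) called 0 positions after adjustment and 4333 at an unadjusted p under 0.05. Its smallest possible p, 0.000155, had an adjusted value of 0.115. Positions that lie close together need not be independent, and the longest run, chr2:70062480-70062730, held 10 of them.

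**Figure D3:**
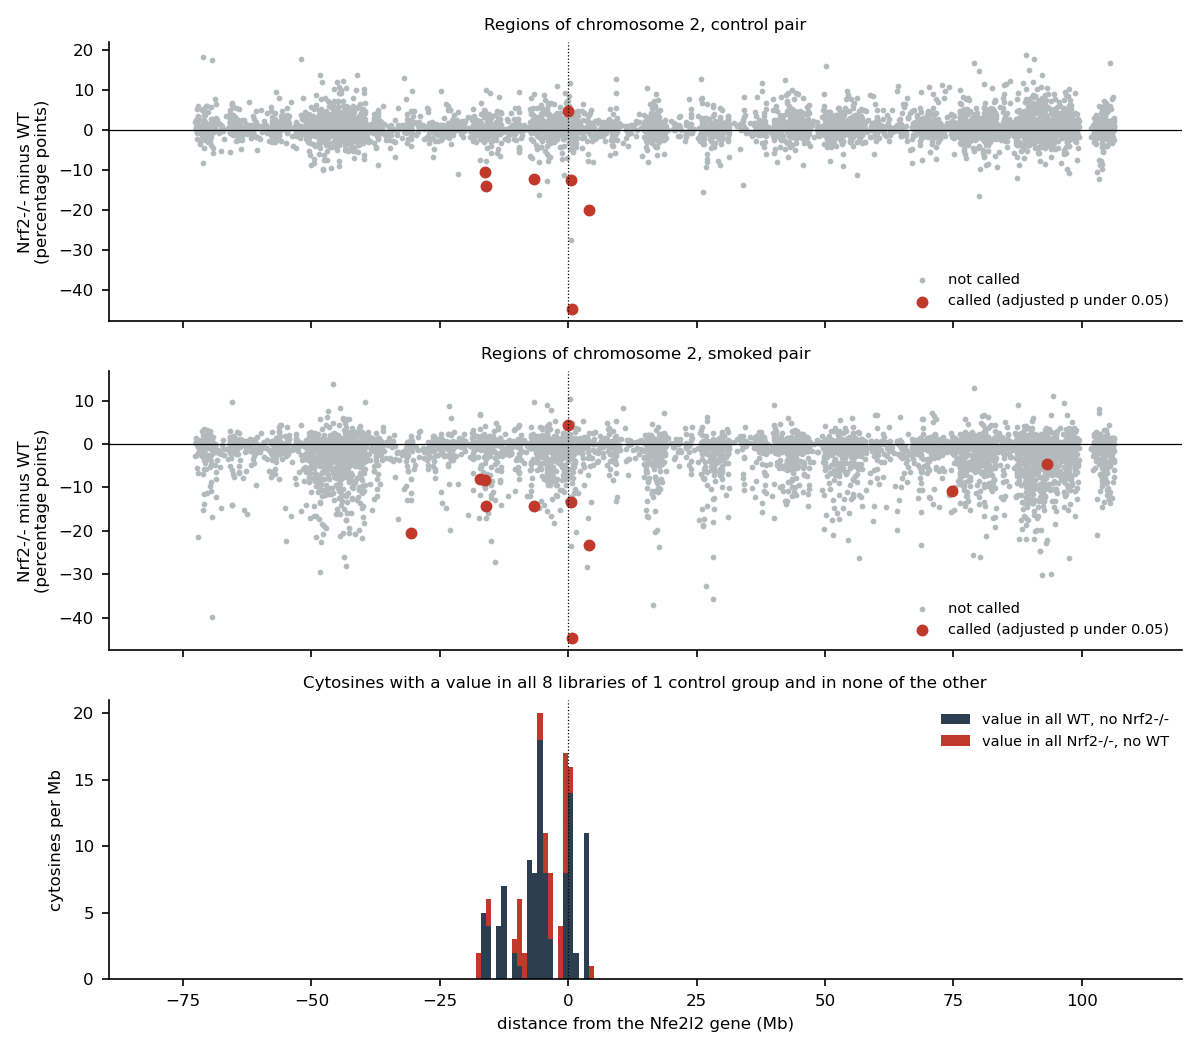
Chromosome 2 by distance from Nfe2l2 in Mb (horizontal axis; the dotted line marks the gene): difference of region DNAme, Nrf2-/- minus WT in percentage points, for the control pair and the smoked pair, and the number of cytosines per Mb with a value in all 8 libraries of 1 control group and none of the other. The 7 called regions of the control pair and all 142 such cytosines lie within 20 Mb of the gene.

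The smoked pair, 8 sons of smoke-exposed Nrf2-/- sires against 8 sons of smoke-exposed WT sires, holds other animals and tests the same regions again. All 10 regions had the same sign there, against 56.4% of all regions, and 8 of the 10 were called, against 65 (0.0803%) of all regions (limma, adjusted p under 0.05). The 8 were 80.0% of the control pair's calls and 12.3% of the smoked pair's. Within 20 Mb of Nfe2l2 on chromosome 2, 7 of the 7 called regions were called in both pairs. On other chromosomes 1 of the 3 was, and the smoked pair had 54 calls there. Without smoked Nrf2-/- columns 2 and 3, whose library means stand apart as described further on, the smoked pair had 18 calls, 8 of the 10 among them. The Osbpl6 region had 38.2% in smoked Nrf2-/- brain and 82.9% in smoked WT brain, a fall of 44.6 points against the same fall in the control pair, and Pgk1 had 15.5% against 1.12%. With the smoked groups fitted alone, 5 of the 10 were called (Osbpl6, Tanc1, Cers6, Pde11a and Hnrnpa3), and no other region was; Pgk1 had an adjusted p of 0.0548 there.

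The Asb4 and chromosome 13 regions were the exceptions. Near Asb4 the smoked pair differed by -5.6 points ± 2.34 (limma, adjusted p = 0.295), with 7 smoked Nrf2-/- libraries at 72.2% to 80.5% and column 7 at 63.4%. On chromosome 13 the smoked difference was -3.69 points ± 1.43 (limma, adjusted p = 0.257). The difference between the pairs was -13.3 points at the Asb4 region (limma, unadjusted p = 0.000392, adjusted p = 0.279) and -6.32 points on chromosome 13 (unadjusted p = 0.00399, adjusted p = 0.335), neither of which passed over all regions. At the marked cytosine on chromosome 13, smoked Nrf2-/- columns 4 and 8 had 50.8% and 49.4%, and the remaining 6 libraries had 80.8% to 95.3%. At 53308767 on chromosome 6, columns 5 and 7 had 4.76% and 0%, and the other 6 had 42.1% to 62.2%.

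The smoked pair by itself had 57 positions with a value in all 8 Nrf2-/- libraries and no WT library, and 108 of the reverse kind, among 151857 tested. Of the 169 of the control pair, 123 (72.8%) had a value in all 8 and none of 8 on the same side there, among them 120 of the 142 on chromosome 2 and 3 of the 27 elsewhere.

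Sperm of unexposed Nrf2-/- and WT males (10 libraries each) was compared at the same cytosines, as a description. At the marked Tanc1 cytosine sperm averaged 0.47% in control Nrf2-/- and 98.3% in control WT, and at the Pde11a cytosine 0% and 95.3%. The chromosome 13 cytosine had 0.201% and 97.3%, and the Osbpl6 cytosine at 76447371 had 0% and 63.5%. The outer cytosines of the Osbpl6 region went the other way in sperm, with 59.6% against 25.4% at 76447349 and 64.0% against 21.3% at 76447413. Of the 22 called cytosines on chromosome 2, 14 had a value in at least 5 sperm libraries of each genotype. All 14 had the same sign in sperm as in brain, and 11 differed by more than 20 points. Of the 8 called cytosines elsewhere, 6 had at least 5 sperm libraries of each genotype, and these did not all follow the brain. The chromosome 6 cytosine at 53308767 fell by 91.3 points in sperm and that on chromosome 13 by 97.1 points. The cytosine at 123659125 on chromosome X was higher by 22.8 points in brain and differed by -20.0104 points in sperm. The X chromosome of every son came from the mother. Sperm values on chromosome X, here and at Pgk1 below, are therefore not those of a copy that the sons inherited. The sperm differences were -0.802 and 0.398 points at the higher pair on chromosome 6, and -2.04 points at 14278131 on chromosome 14. At the Cers6 cytosines and at 59522838 and 59522845 of the Dapl1 region no control Nrf2-/- sperm library had a value, against all 10 control WT libraries. Near Asb4 the marked cytosine had a value in 1 control Nrf2-/- and 10 control WT sperm libraries. The Pgk1 region was near 0 in both, at 0.744% ± 1.28 (SD, n = 10) in control Nrf2-/- sperm and 0.298% ± 0.842 (SD, n = 8) in control WT sperm.

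The regions of Nfe2l2 itself were not called. Its promoter held 2 regions. The first, of 10 cytosines, averaged 1.13% in both groups (difference 0.00175 points ± 0.509), and the second, of 15 cytosines, had 5.25% ± 0.739 in control Nrf2-/- brain and 4.16% ± 1.402 in control WT brain (SD, n = 8; limma, adjusted p = 0.648). An intronic region of 3 cytosines had 47.8% ± 7.8 and 40.5% ± 5.61 (limma, adjusted p = 0.648). All these ranges overlapped. At the cytosines of the first promoter region, 0 control Nrf2-/- sperm libraries had a value, against 6 or 7 control WT sperm libraries. At 75704896, just beside that region, 0 control Nrf2-/- and 7 control WT brain libraries had a value. Whether the copy from the sire was read there in sons of Nrf2-/- sires was not tested, so the equal means may come mostly from the maternal copy.

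Of the regions of 15 gene lists, 0 were called (limma, adjusted p under 0.05), beside 0.0124% of all regions. At an unadjusted p under 0.05 the background over all regions was 7.73%, with 5192 higher and 1063 lower, and no list was tested against it. Without control Nrf2-/- columns 3 and 4, described further on, the regions at this level fell from 6255 to 3658. The counts of the lists at this level were not repeated without these columns. For the NRF2 pathway (KEAP1, CUL3, the small MAF and BACH proteins and others), 13 of 13 genes had a region. Of their 45 regions, 3 (6.67%) were higher and 0 lower at an unadjusted p under 0.05, with a median difference of 0.365 points beside 0.409 over all regions. The smallest p was at the promoter of Sqstm1, an autophagy receptor that binds KEAP1, in a region that overlaps Mgat4b, at 1.84% against 0.615% (limma, adjusted p = 0.642). Among 105 regions of NRF2 targets, 8 were higher and 2 lower at that level (9.52% in all; median 0.271), led by a promoter region shared by Ikbkg and G6pdx, the first enzyme of the pentose phosphate pathway, at 2.95% against 0.501%.

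The neuronal lists had 6.31%, 7.91% and 7.69% of their regions at an unadjusted p under 0.05, close to the 7.73% of all regions. Regions of glutamate and GABA receptors numbered 301, with 18 higher and 1 lower at an unadjusted p under 0.05 and a median of 0.52 points. A region over an exon of Gria4, an AMPA receptor subunit, had the smallest p of any list, at 87.3% ± 3.14 (SD, n = 8) against 77.5% ± 7.29 (SD, n = 6; limma, adjusted p = 0.622). Monoamine and acetylcholine signalling had 10 higher and 1 lower of 139 (median 0.442), with Chat, which makes acetylcholine, at 92.0% against 84.8%. In the smoked pair the Chat region had the opposite sign, at -6.44 points (limma, adjusted p = 0.205), and the difference of the pairs did not pass (adjusted p = 0.223). Neuropeptides, hormones and their receptors had 13 and 1 of 182 (median 0.526), and the smallest p was at the promoter of the galanin receptor gene Galr2, at 2.05% against 1.18%.

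Imprinted genes had 12 higher and 4 lower of 189 regions (8.47%; median 0.334), led by the Asb4 promoter at 19.8% ± 4.28 (SD, n = 8) against 12.504% ± 5.75 (limma, adjusted p = 0.642). Oxidative phosphorylation had 12 and 1 of 119 (10.9%; median 0.450), led by a region shared by Atp5o and Itsn1 at 7.65% against 2.79%. DNA methylation writers and erasers had 9 and 2 of 92 (11.96%, median 0.246), led by the promoter of Uhrf2 at 1.14% against 0.0379%. At Uhrf2 the control Nrf2-/- libraries had a median of 0.708% and a highest value of 3.67%, and the groups overlapped.

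Among cell type markers the medians were 0.849 points for excitatory neurons (31 regions), 0.370 for inhibitory neurons (45), 0.640 for astrocytes (36), 1.00078 for oligodendrocytes (47), 0.586 for microglia (38), 0.864 for endothelium (29) and -0.371 for germ cells (27). In the smoked pair the medians had the opposite sign for astrocytes (-0.604), oligodendrocytes (-2.79), microglia (-2.49) and endothelium (-1.67), beside -0.405 over all regions. The sign also turned for imprinted genes (-1.22), glutamate and GABA receptors (-0.612), monoamine and acetylcholine signalling (-0.188), neuropeptides (-0.136), NRF2 targets (-0.118) and DNA methylation writers and erasers (-0.0976). The counts that follow are for the cell types, in the order of their first mention above. Those higher and lower at an unadjusted p under 0.05 were 4 and 1, 2 and 0, 3 and 1, 2 and 0, 6 and 0, 0 and 0, and 1 and 0. As shares these were 16.1%, 4.44%, 11.1%, 4.26%, 15.8%, 0% and 3.70%, beside 7.73% of all regions, of which 5192 of 6255 were higher. For inhibitory neurons, astrocytes, oligodendrocytes, endothelium and germ cells the smallest p lay at Slc32a1, Slc1a2, Olig2, Flt1 and Dazl, of which only Slc1a2, a glutamate transporter of astrocytes, was lower in control Nrf2-/- brain (17.8% against 25.1%). It too had the opposite sign in the smoked pair, at 5.4 points (limma, adjusted p = 0.357). Promoter levels of the lists overlapped between groups: those of the oligodendrocyte markers spanned 15.8% to 20.0% in control Nrf2-/- libraries and 13.3% to 18.7% in control WT libraries, and those of the microglia markers 54.3% to 57.6% and 48.1% to 56.3%. In whole tissue, a change in the share of a cell type and a change within cells cannot be told apart.

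The mean over the genome differed slightly, in a call that depended on which cytosines were taken. Over 1027844 cytosines with a value in all 16 libraries the mean was 34.2% ± 0.363 (SD, n = 8) in control Nrf2-/- brain and 33.8% ± 0.329 in control WT brain, a difference of 0.455 points (exact permutation test, two-sided, p = 0.0211, Benjamini-Hochberg adjusted p = 0.0465 over 11 overlapping classes), with 3 of 8 libraries above every control WT library. The difference was 0.563 points over all scoreable cytosines (exact permutation p = 0.135) and 0.594 points when each library kept whatever cytosines it had (exact permutation p = 0.518), neither of which passed. Cytosines with low levels carried the clearest part. Those under 25% averaged 2.56% ± 0.494 against 2.06% ± 0.137 (exact permutation p = 0.00171, adjusted 0.00627), and those within 1000 bp of a transcription start 5.89% ± 0.409 against 5.46% ± 0.112 (p = 0.000777 in the same exact test, adjusted 0.00627). CpG-dense sequence differed by 0.383 points (adjusted 0.00627) and chromosome X by 0.359 points (adjusted 0.0427). Exons (0.463 points), introns (0.468), intergenic cytosines (0.486), sequence that is not CpG-dense (0.523) and those over 75% (-0.221) did not pass. Neither did cytosines of 25% to 75%, although their difference of 1.62 points was the largest in size (exact permutation p = 0.0685, adjusted 0.126).

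Some of these library means depended on a few libraries, which also had the highest means over mitochondrial cytosines in their group. Control Nrf2-/- columns 3 and 4, numbered 15 and 16 in the column headers, had 3.27% and 3.42% at cytosines under 25%, where the other 6 had 2.20% to 2.46% and control WT brain 1.92% to 2.28%. At cytosines over 75% both stood lowest, at 87.8% and 87.7% against 89.6% to 90.4%. Mitochondrial cytosines averaged 1.11% ± 0.24 (SD, n = 8) in control Nrf2-/- brain and 0.792% ± 0.096 in control WT brain (exact permutation test, two-sided, p = 0.00109). Of the 8 control Nrf2-/- libraries, 6 lay above every control WT library. In the smoked pair the means were 1.17% in Nrf2-/- and 0.964% in WT brain (same test, p = 0.0521). Control Nrf2-/- columns 3 and 4 had the highest values of their group, 1.29% and 1.61%. Smoked Nrf2-/- columns 2 and 3, numbered 13 and 14, stood apart in the same way, at 2.89% and 3.35% under 25% where the other 6 had 1.95% to 2.24%, and at 1.48% and 1.67% over mitochondrial cytosines. The part of these libraries' mitochondrial level in the means was not tested. Without columns 3 and 4 the difference was 0.218 points at promoters and 0.234 points at cytosines under 25% (exact permutation test, adjusted p = 0.0183 for each), and 0.497 points over all cytosines (p = 0.0280, adjusted 0.0592). The count of regions with an unadjusted p under 0.05 then fell from 6255 to 3658, 2954 of them higher. The column headers number the Nrf2-/- brain libraries 1 to 16 and the WT brain libraries 17 to 32, so the numbering and the genotype cannot be told apart. The labels do not say what the numbers stand for.

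**Figure D4:**
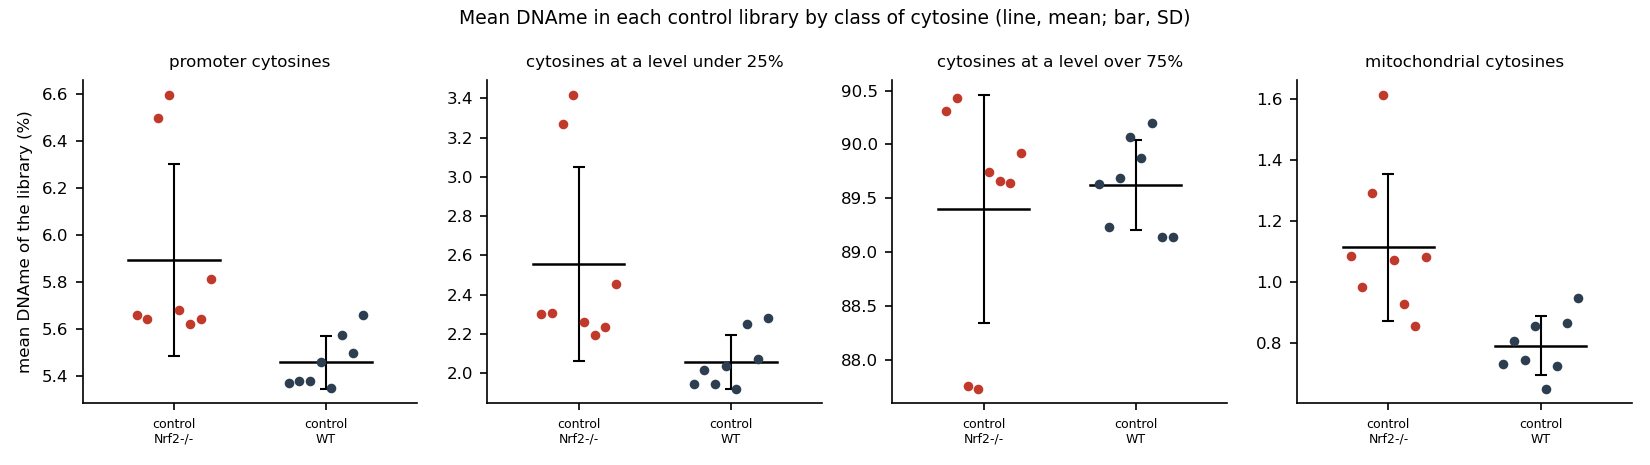
Mean DNAme in percent (vertical axes, not starting at 0) of each control brain library over promoter cytosines, cytosines at a level under 25%, cytosines at a level over 75%, and mitochondrial cytosines, with a line at the group mean and a bar of 1 SD. Columns 3 and 4 of control Nrf2-/- brain are the upper 2 points at promoters (6.5% and 6.6%) and the lowest 2 at levels over 75%.

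Over 861516 cytosines with a value in all 32 brain libraries, Nrf2-/- minus WT was 0.48 points in the control pair and -0.509 points in the smoked pair. By class, the smoked difference was 0.153 points at promoters, 0.144 in CpG-dense sequence, 0.142 at cytosines under 25% and -0.957 at cytosines over 75%. These classes had the same sign as in the control pair. It was -1.28 points in exons, -1.34 in introns, -1.14 between genes and -1.19 in sequence that is not CpG-dense. At levels of 25% to 75% it was -2.62 points, and on chromosome X -0.27. These classes had the opposite sign. No class passed after adjustment in the smoked pair (exact permutation test). The difference between the pairs over all cytosines was 0.989 points (permutation test, two-sided, p = 0.00177). Over regions, the median difference was 0.409 points in the control pair and -0.405 points in the smoked pair.

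By the thresholds of change alone, without a test, 6097 regions (7.53%) were DMRs: 4357 higher and 1740 lower in control Nrf2-/- brain. A DMR by size had at least 1 in 3 cytosines changed by more than 5 points and a mean change above 5 points. Of the 10 regions called by limma, 7 were DMRs by size. The others were Tanc1 and Cers6, each with a single changed cytosine of 4, and Hnrnpa3, with a mean change of 4.71 points. The median SD between libraries over 71794 regions was 2.75 points in control Nrf2-/- brain and 2.69 points in control WT brain, and the SD was larger in control Nrf2-/- brain in 60.7% of regions. Without columns 3 and 4 the control Nrf2-/- median was 2.48 points.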

How the data were processed

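Prefrontal cortex RRBS libraries of 16 sons were compared. The authors aligned reads to mm10 with Bismark and deposited, per group, methylation percent per CpG cytosine and library, without counts. The Bismark version is not given in the sources used here; the study scored cytosines with read coverage above 8, which the deposited percents do not show. Headers number columns but match no sample title, so columns were grouped by table and named by order; 0 value columns were unused. Region values were adjusted for missing cytosines, and at least 50% of cytosines had to be present. limma 3.58.1 (R 4.3.3) fitted the 4 brain groups together, with Benjamini-Hochberg adjustment over all regions. The script was tested on made-up data with known changes. Library means used exact permutation tests and presence Fisher's exact test (Python 3.11.15, SciPy 1.17.1). P-values measure the spread between libraries, each from a son. Alternatives were other groups in the fit, the logit scale, array weights, trend and robust fits, plain means, wider joining, more libraries required, and each library left out. Regions were placed with GENCODE M21 on GRCm38. Named were all called regions, every Nfe2l2 region and, per gene list, the region with the smallest p. For 2 of the lists that region is not reported here. The comparison, the lists and the regions were chosen with earlier results of these data known. The comparisons without control Nrf2-/- columns 3 and 4, smoked Nrf2-/- columns 2 and 3, or chromosome 2 were chosen after seeing the data.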

Additional observations from a re-analysis of the deposited data

Results flagged for a closer look

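In 7 regions named above a library stood far from the rest of its group, and 7 were found among 80 groups examined. Chance alone gives this in about 1 in 20 groups if values follow a normal distribution, which values close to 0% need not. In a group where all libraries but 1 are at 0%, as in control WT brain at Pgk1, any other value is flagged. Near Asb4 on chromosome 6 the far library was control Nrf2-/- column 5 at 77.1%, and on chromosome 13 control Nrf2-/- column 3 at 85.9%. In control WT brain it was a library at 10.8% at the Hnrnpa3 region, 1.11% at the Pgk1 region, 0.992% at the second promoter region of Nfe2l2 and 1.85% at the G6pdx promoter region. At the intronic Nfe2l2 region it was 31.1% in control Nrf2-/- brain.

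The control pair and the smoked pair differed in their difference of mean DNAme, by 0.989 points (permutation test, two-sided, p = 0.00177).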

How the results depend on the processing

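No paired analysis was possible because the columns carry facility numbers and not the replicate numbers of the labels. Of 248 other settings of the 10 called regions, 241 kept direction and call, 7 lost the call and 0 reversed. The losses were Hnrnpa3 (adjusted p = 0.0887 with both control groups fitted alone in limma, 0.785 with cytosines up to 300 bp apart joined), the chromosome 13 region (0.0883 with both groups alone), Pgk1 (0.0582 with both groups alone) and Itprid2 (0.0605 with plain means, 0.0501 without columns 3 and 4, 0.616 with the wider joining). Against 10 regions called (2 higher, 8 lower), limma called 21 (8 higher) with array weights, 16 (6 higher) where all 8 libraries of every group had a value, 30 single cytosines, 3 with chromosome 2 left out, and 10 to 17 with a library left out, 17 without control Nrf2-/- column 5. Against 6097 DMRs by size there were 704 at 10 points, 10324 with the wider joining, 1940 with all 8 libraries required, and 5635 to 7306 with a library left out. The difference of mean DNAme was 0.563 points over scoreable cytosines (exact permutation p = 0.135), 0.594 when each library kept whatever cytosines it had (exact permutation p = 0.518), and 0.377 to 0.542 with a library left out. With only the smoked groups fitted, 5 of the 10 regions were called in the smoked pair. The first Nfe2l2 promoter region, near 0 difference, reversed to -0.0804 on the logit scale (log2 odds), to -0.0616 without columns 3 and 4, and ranged from -0.197 to 0.128 with a library left out. The causes were not tested. Read depth per value is unknown, and CAST/EiJ sequence was read against mm10, so a percent can mix sequence with DNAme. Leaving out columns 3 and 4 and leaving out chromosome 2 were chosen after seeing the data.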
